A study of Mus musculus with 6 samples.

Results

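Pseudogenes are copies of genes that have lost, or are presumed to have lost, the function of the gene they derive from. A processed pseudogene arose when the mature mRNA of a parent gene was copied back into DNA and inserted elsewhere in the genome, so it carries the exons of its parent joined together without introns. An unprocessed pseudogene arose by duplication of genomic DNA and keeps the introns. Genes whose mRNA is abundant in many cells, above all those for ribosomal proteins, have left many processed copies in mammalian genomes, and a short read of the parent mRNA can be identical to such a copy.

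Peaks that lay over exons of pseudogenes and over no exon of any other kind of gene were examined in RISC-IP data of MSC myocytes. Within the RISC, Ago2 is the subunit that carries the miRNA, and RNA bound to it was pulled down with an anti-Ago2 antibody and sequenced. MSC are primary satellite cells of the mouse, the stem cells of skeletal muscle. The cells were kept in differentiation medium (DM) for 30 h, transfected with duplex RNA at 10 nM according to the sample labels, and kept in DM for 16 h more. The miR-222-IPs received miR-222 duplex and the control-IPs received siGFP duplex, a duplex directed against a protein that these cells do not make, and the labels give no genotype, strain or age. Experiment 1 gave miR-222-IP replicate 1 beside control-IP replicates 1 and 2, and experiment 2 gave control-IP replicate 4 and miR-222-IP replicate 2. Control-IP replicate 3 of experiment 2 was left out of all comparisons because its peaks had a median width of 32103 bp, against 362 to 411 bp in the other 5 libraries. The libraries were pulled-down RNA with no input library among them, so a value reports a peak within an IP and not enrichment over the RNA of the cells.

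Peaks of the 5 libraries were merged where they overlapped or touched, which gave 41363 intervals. Of these, 1924 overlapped pseudogene exons of the GENCODE M21 annotation (GRCm38) and no other exon. Another 136 intervals were set aside because they overlapped exons of both kinds. The 1924 intervals lay over 1716 of the 13523 annotated pseudogenes, and 180 pseudogenes held 2 or more of them. The pseudogene was processed in 1760 intervals and transcribed processed in 64, while it was unprocessed in 73 and transcribed unprocessed in 21. The intervals had a median width of 469 bp, against 373 bp for the other 37022 exonic intervals, and pseudogene exons covered a median of 88.8% of an interval. In 221 intervals they covered less than 50%, and 535 intervals (27.8%) lay within the body of another gene, away from its exons.

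Each interval carries for each library the −log10 p of its highest peak there, called its value below. Peaks under 20 are not listed, so a missing value means that no peak of 20 or more was listed and not that RNA was absent. The depth behind a value is unknown, and a value rises with depth as well as with enrichment. Control-IP replicates 1, 2 and 4 listed 10579, 20000 and 17892 peaks. The lists of the miR-222-IPs, replicates 1 and 2, held 21074 and 37762. Where values are given for both groups without replicate numbers, they stand in these orders. Of 10 marker genes of skeletal myocytes, 6 had an exonic peak in all 5 libraries and none lacked a peak altogether. Of 3 leukocyte markers, Cd68 and Lyz2 had a peak in all 5 libraries with values from 114 to 185. Of 4 fibroblast markers, none had a peak in all 5 libraries and Col1a1 had none at all. Of 3 endothelial markers, Pecam1 had a peak in all 5 libraries, while Kdr had none.

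Processed pseudogenes and their parent genes differ in structure at the exon junctions of the parent mRNA. In the parent gene an intron separates the joined exons, whereas a processed pseudogene holds them as 1 continuous stretch of genomic DNA. The following lines show this for 3 of the pseudogenes described later, as 30 bases around a junction in the coding part of the parent. They were chosen after the values were seen. The first line of each set is the pseudogene, the second the parent mRNA, with the bases of the downstream exon in capitals, and the third the DNA of the parent gene at the same exon end, running into the intron.
Gm10275, chr10:29699239-29699268, minus strand: acgaggtcaaagtcgTGTACCTGAGGTGCA
Rpl12 mRNA, exons 1 and 2: acgaggtcaaagtcgTGTACCTGAGGTGCA
Rpl12 gene, chr2:32961825-32961854, plus strand: acgaggtcaaagtcggtgcgtgccctcgcc
Gm12070, chr11:26787137-26787166, plus strand: gtggaagggctcatgACCACAGTCCATGCC
Gapdh mRNA, exons 4 and 5: gtggaagggctcatgACCACAGTCCATGCC
Gapdh gene, chr6:125162828-125162857, minus strand: gtggaagggctcatggtatgtaggcagtgg
Rpl36a-ps2, chr3:145879114-145879143, plus strand: ctttgtatgcccaggGAAAGCGGCGTTACG
Rpl36a mRNA, exons 2 and 3: ctttgtatgcccaggGAAAGCGGCGTTACG
Rpl36a gene, chrX:134586169-134586198, plus strand: ctttgtatgcccagggtaagctgcttagat
In each set the pseudogene matched the mRNA at 30 of 30 bases. The DNA of the parent gene matched the pseudogene at 17, 17 and 23 of 30 bases, and in all 3 sets the first 15 were among them.

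Other pseudogenes had drifted from their parents. The most different 30 bases of the aligned part of Gm6517 and the mRNA of Myl12a, a myosin regulatory light chain, are shown with the differing bases in capitals.
Gm6517, chr5:66890526-66890555, plus strand: cacgacatgctggcTtcaatggAaaaaaaA
Myl12a mRNA: cacgacatgctggcGtcaatggGaaaaaaC
These 30 bases held 3 differences, and over its whole aligned part Gm6517 was 96.9% identical to Myl12a, with 62 bases as its longest run without a difference.

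For most of the intervals a parent gene could be named. The bases of each interval that lay in pseudogene exons were aligned to all protein-coding and mitochondrial ribosomal transcripts, and a parent was called clear where 1 gene alone gave the best alignment, with at least 90% identity over at least 80% of the bases. A clear parent was found for 1713 of the 1924 intervals (89.0%), and they came from 861 parent genes. For 109 intervals several genes were tied, 69 alignments were below these limits and 33 intervals had none. Identity to the clear parent had a median of 98.1% with quartiles of 96.4 and 99.3%. It was 99% or more in 540 intervals and 100% in 159.

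Pseudogene and parent shared stretches as long as a read in most of these intervals, but not in all. The study sequenced 100 bases from each end of a fragment. In 1177 of the 1713 intervals (68.7%) pseudogene and parent shared a run of at least 100 identical bases, and the longest shared run had a median of 131 bases. Exon junctions of the parent were common inside the intervals. Of 1691 intervals whose parent mRNA has junctions, 1579 (93.4%) held at least 1 and 1324 held 2 or more, with a median of 3. A read of spliced mRNA across such a junction matches the pseudogene without a gap. In 1057 pseudogenes with a clear parent that were covered in part, the covered bases held 7.42 parent junctions per kb and the uncovered bases 5.55. How reads that fit several places were assigned is not given in the sources used here, so reads of the parent mRNA and of a transcribed pseudogene cannot be told apart at these intervals.

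The largest listed group of parents was that of the ribosome, and about as many intervals had a parent outside the lists as within them. Cytosolic ribosomal proteins were the parents of 458 intervals (26.7%), from 76 ribosomal protein genes, with 276 intervals from the large and 180 from the small subunit. Translation factors were the parents of 64 intervals, chaperones and cyclophilins of 63, RNA-binding and hnRNP proteins of 56, and the ubiquitin and proteasome system of 51. Subunits of oxidative phosphorylation followed with 44, glycolytic enzymes with 43, the cytoskeleton with 39 and chromatin proteins with 30. The remaining 856 intervals outside these lists and the mitochondrial genome came from 626 different parents. The ribosomal group recurred most across libraries, with 315 of 458 intervals (68.8%) under a peak in all 5 libraries. The mitochondrial genome came close, with 6 of 9 (66.7%). The share was 59.0% for the cytoskeleton, 56.2% for translation factors, 54.5% for oxidative phosphorylation and 50% for RNA-binding proteins. Chromatin proteins had 40%, chaperones 39.7%, glycolytic enzymes 32.6%, and the ubiquitin and proteasome system and parents outside the lists 31.4% each.

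**Figure D1:**
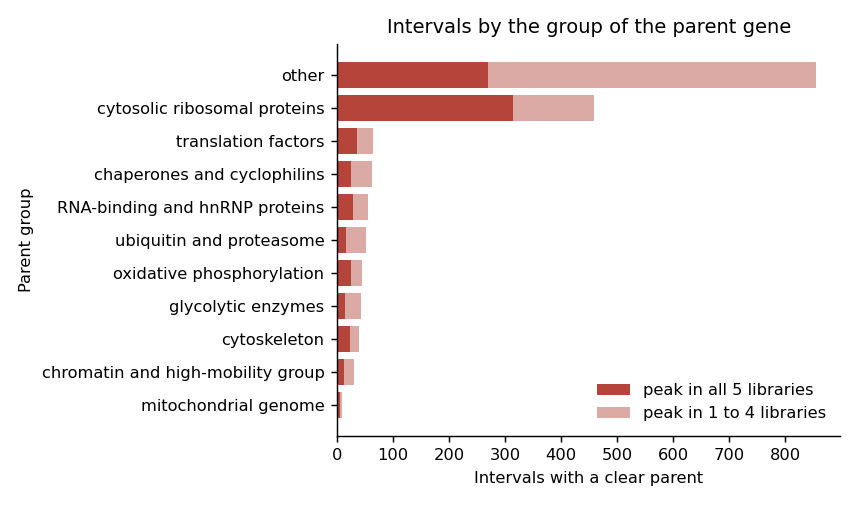
Number of intervals over pseudogene exons with a clear parent, by the group of the parent gene (y axis), with intervals that had a peak in all 5 libraries in dark red and those with a peak in 1 to 4 libraries in light red. Ribosomal protein parents account for 458 intervals, 315 of them in all 5 libraries, and parents outside the lists for 856.

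The intervals of most groups were spread over many parents. Of the clear parents, Rpl7a of the large ribosomal subunit and Eef1a1 had the most intervals, with 23 each. Eef1a1 is the elongation factor that brings aminoacyl-tRNA to the ribosome. Among the other groups, Gapdh of glycolysis had 18 intervals, the chaperone Hspa8 15, Hnrnpa1 10, the histone gene H3f3a 9, the ubiquitin-conjugating enzyme Ube2l3 9 and the tubulin Tuba1b 6. Further intervals, such as those at Gm10566 and Gm2546, were tied between Gapdh and its coding copy Gm10358. They are not counted for Gapdh, so the order of parents above leaves them out. Of 21 processed copies of Eef1a1 with at least 85% identity, 18 had a peak.

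Peaks over pseudogenes had higher values and recurred in more libraries than other exonic peaks, as described here without a test. A peak in all 5 libraries was present in 830 of the 1924 intervals (43.1%), against 19.2% of all merged intervals and 18.6% of the other exonic intervals. At the other end, 477 intervals had a peak in a single library, and for 383 of them it was miR-222-IP replicate 2, the library with the longest list. These 383 are 19.9% of the 1924 intervals, against 31.3% of all merged intervals. The median value was 48.7, 47.5 and 50.9 in the control-IPs, and 52.3 and 61.3 in the miR-222-IPs. The other exonic intervals had medians of 33.6, 36.8, 35.5, 35.6 and 40.2 in the same order. Values over 200 were held by 3.98 to 7.56% of the pseudogene intervals with a peak, against 0.525 to 0.842% of the other exonic intervals. All 5 libraries gave the same order of the medians.

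**Figure D2:**
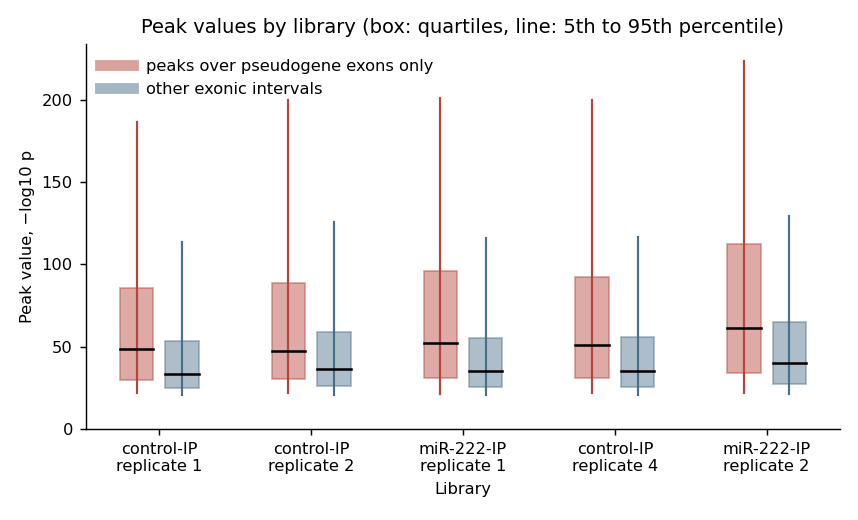
Values (−log10 p, y axis) of intervals over pseudogene exons (red) and of other exonic intervals (blue) in each of the 5 libraries, with boxes for the quartiles, black lines for the medians and vertical lines from the 5th to the 95th percentile. The red medians, 47.5 to 61.3, lie above the blue medians, 33.6 to 40.2, in every library.

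The highest values belonged almost wholly to copies of ribosomal protein mRNAs. Ranked by median value among intervals with a peak in all 5 libraries, 9 of the highest 10 had a ribosomal protein parent, and all 10 were higher than the parent in every library where both had a peak. The highest was Gm14303 (chr2:172509332-172509765), a copy of the small-subunit gene Rps29, with 350, 351 and 353.6 in the control-IPs and 350 and 348 in the miR-222-IPs. Rps29 itself reached 91.9, 95.7 and 104 in the control-IPs and 100.6 and 97.2 in the miR-222-IPs at the aligned exons. The 5 libraries were nearly level for the copy, and its lowest value lay above the highest value of its parent.

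The exception among the highest 10 was Gm38317 (chr3:12975327-12975758), a copy of Itgb5, the integrin beta 5 subunit that joins cells to the matrix. It had values of 273, 330 and 297 in the control-IPs and of 313 and 342 in the miR-222-IPs. The aligned exons of Itgb5 had 146, 198 and 165 in the control-IPs and 158 and 182 in the miR-222-IPs. The copy was higher than its parent in each of the 5 libraries. Others among the highest 10 are Gm4332 (Rps20), Rpl37rt (Rpl37), Rpl38-ps2 (Rpl38), Rps25-ps1 (Rps25), Gm10275 (Rpl12), Rpl18-ps2 (Rpl18) and Rps10-ps2 (Rps10), with the parent in parentheses.

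Gm10275 (chr10:29698699-29699401), whose junction sequence is shown above, had the largest ratio to its parent among the highest 10, taking the median over libraries with a peak. Its values were 270, 250 and 257 in the control-IPs and 289 and 299 in the miR-222-IPs. Rpl12, a protein of the large subunit, had 24.5 and 22.6 in control-IP replicates 1 and 4, 45.4 in miR-222-IP replicate 2 and no peak in the other libraries. The 635 bases of the copy match Rpl12 over a run of 634 bases with all 6 of its junctions. Rpl37rt (chr5:115103110-115103636) showed the same order, with values of 281 to 307 against 46.8 to 61.7 at Rpl37.

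Whether a processed pseudogene had a peak was related to how closely it resembles its parent. All 10236 annotated processed pseudogenes were aligned whole, and 8455 had 1 best gene over at least 80% of their length. A peak was present at 0.551% of those under 85% identity (95% Wilson interval 0.334 to 0.908%) and at 76.0% of those at 99% or more (72.2 to 79.4%). The shares between were 4.70, 16.5, 46.4 and 63.4% for the classes from 85, 90, 95 and 98% identity. The Wilson intervals cover counting error only, because copies of 1 parent are not independent. The order also held within parents. Among 162 parents with at least 2 copies with and 2 without a peak, the copies with a peak had the higher median identity in 159, by a median of 6.89 percentage points.

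A peak at the parent went with a peak at the pseudogene. Among the 4075 processed pseudogenes with a clear parent, 45.6% (43.8 to 47.3%) had a peak where the parent had a peak at the aligned exons, against 14.5% (12.4 to 16.8%) where it had none. At 95 to 98% identity the shares were 56.1 and 12.2%, and at 99% or more they were 89.8 and 47.1%.

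**Figure D3:**
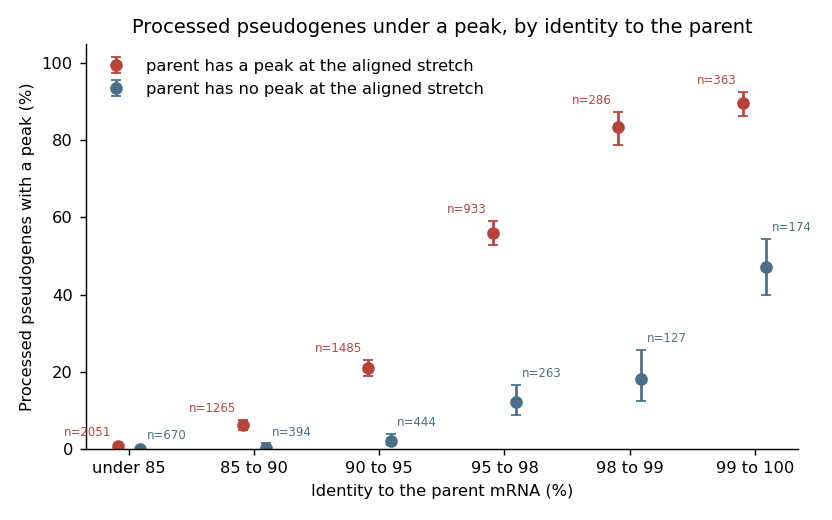
Share of processed pseudogenes with a peak in any of the 5 libraries (y axis, percent) by identity to the parent mRNA (x axis, percent), for parents with a peak at the aligned exons (red) and without one (blue), with 95% Wilson intervals and the number of pseudogenes n. Both series rise with identity, and at 99% or more they reach 89.8% and 47.1%.

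The parent of most intervals was itself under a peak. Of the 1713 intervals with a clear parent, 1491 (87.0%) had a peak at the aligned exons of the parent in at least 1 library and 1644 (96.0%) had one at any exon of it. In the 5 libraries, 78.0 to 86.4% of the intervals with a peak had a peak at the parent in the same library. Among intervals without a peak in a library the share was 41.9 to 70.7%. Where both had a peak, the pseudogene was the higher one in 39.95 to 45.7% of cases. Across intervals within a library, the Spearman correlation of the 2 values was 0.20 to 0.24 (n from 702 to 1400), where intervals of 1 parent share the parent's value and are not independent.

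Which of the pair was higher changed with identity. Pseudogene and parent both had a peak in all 5 libraries for 576 intervals from 279 parents. The pseudogene was higher in all 5 libraries in 204 of them (35.4%) and the parent in 209 (36.3%). At 90 to 95% identity the pseudogene was higher in all 5 libraries in 10.9% of 55 intervals and the parent in 58.2%. At 99% up to but not including 100% the shares were 53.1 and 19.6% of 143 intervals, and at 100% they were 67.4 and 19.6% of 46. Median values of the pseudogenes rose from 62.1 in the lowest to 126 in the highest class, and those of the parents were 108 and 78.2. Intervals with 4 or more parent junctions had the pseudogene higher in 41.2% of 240 cases, and those with none in 28.6% of 21.

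**Figure D4:**
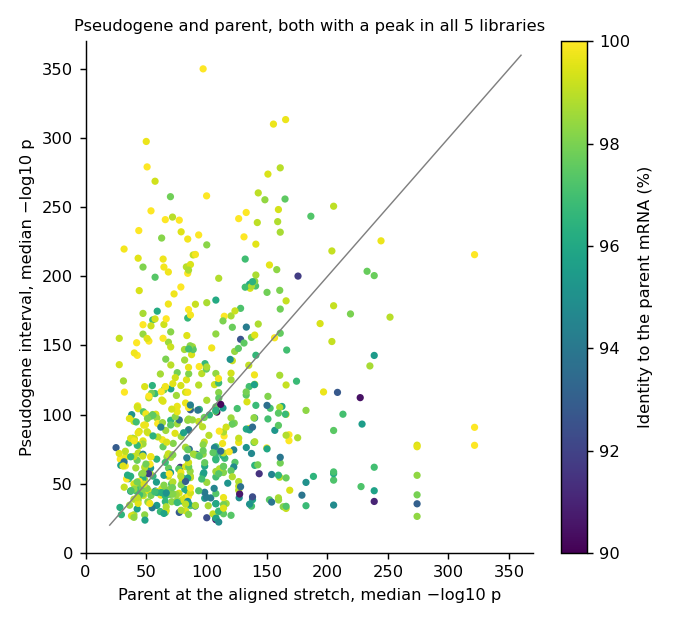
Median value over the 5 libraries (−log10 p) of the pseudogene interval (y axis) and of its parent at the aligned exons (x axis) for the 576 intervals where both had a peak in all 5 libraries, coloured by identity. Points above the grey line of equal values are mostly of high identity, and the pseudogene was higher in all 5 libraries in 204 of the 576.

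Several pseudogenes stood under a peak while the parent had none. The parent lacked a peak at the aligned exons in all 5 libraries in 28.9% of the 159 intervals with 100% identity, against 2.92% of those at 90 to 95%. At 69 intervals no exon of the parent had a peak at all. The highest of these was Rpl36a-ps2 (chr3:145878908-145879424), identical over 321 bases to Rpl36a of the large subunit. It had values of 155, 95.2 and 196 in the control-IPs and 211 and 272 in the miR-222-IPs. Before scaling each miR-222-IP was above the control-IPs of its experiment, while the scaled log2 ratios described later were 0.33 and −0.12. Gpx4-ps2 (chr10:45875344-45876099) is a copy of Gpx4, which reduces lipid peroxides. It had 42.2, 129 and 50.9 in the control-IPs and 67.9 and 145 in the miR-222-IPs, so that the miR-222-IP of experiment 1 lay between the control-IPs. Gm14270 (chr2:170284991-170286056) is a copy of Hax1 and ranged from 33.3 to 139.

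Gapdh showed the same on a larger scale. Its 18 intervals, and 8 more whose best match was Gm10358, an intronless coding copy of Gapdh, had no parent peak at the aligned exons in any library, and 10 of the 26 were under a peak in each of the 5 libraries. Gm12070 (chr11:26787095-26787726) was identical to Gapdh over 540 bases, with 52.2, 96.5 and 93.7 in the control-IPs and 96.4 and 107 in the miR-222-IPs. Gm13394 (chr2:28934059-28934701) was 99.8% identical, with 108, 71.4 and 73.2 in the control-IPs and 143 and 98.9 in the miR-222-IPs. The values of Gapdh at other exons, which do not align to these intervals, were 39.0 and 42.6 in control-IP replicates 2 and 4 and 25.4 and 128 in the miR-222-IPs. As whole genes, 130 processed pseudogenes had Gapdh as best match with at least 85% identity and 34 had a peak, with median identities of 98.4% with and 90.6% without. The Gapdh family was chosen after its values were seen.

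Copies of mitochondrial DNA in the nuclear genome gave another set without a parent peak. Of 9 intervals with a mitochondrial parent, 1 had a parent peak, and the mitochondrial genome held 3 or 4 peaks in each list. Next to one another on chromosome 1 lay Gm28439, Gm28437, Gm28661 and Gm29216, which match mt-Nd4, mt-Co3, mt-Co2 and mt-Co1 without a difference. Gm29216 (chr1:24615692-24616162) had 59.3, 75.4 and 78.3 in the control-IPs and 57.8 and 54.6 in the miR-222-IPs. On chromosome 2 Gm13340 (chr2:22588423-22589538), 97.7% identical to mt-Co1, had 112, 137 and 111 in the control-IPs and 114 and 117 in the miR-222-IPs. At Gm29216 both miR-222-IPs were below all control-IPs, while at Gm13340 the groups overlapped.

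Unprocessed pseudogenes were fewer. Gm11787 on chromosome 4 had 5 intervals, all matching exons of Lyn, a kinase of blood cells. The interval chr4:3498702-3499102 had 37.7, 28.3 and 52.4 in the control-IPs and 51.7 and 94.4 in the miR-222-IPs, and Lyn had 24.7 to 80.1 there. The summed value of the 3 leukocyte markers was 296 to 456 in the control-IPs and 403 to 421 in the miR-222-IPs, and its part in the peaks at Gm11787 was not tested. At 9 intervals, most of them over unprocessed pseudogenes of chromosome 8 such as Gm21092 and Gm6483, the parent was Cdh11, a cadherin gene without an exonic peak in any library. Gm6483 (chr8:19682243-19682744) had 32.2 in control-IP replicate 4, 31.8 and 85.2 in the miR-222-IPs and no other peak. Cdh11 was chosen after its values were seen. Other pseudogenes with many intervals were Gm5422 (Psmd2), Gm6475 (Cd2ap) and Gm6493 (Tnpo1), with 4 each.

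Pseudogenes of the types that the annotation calls transcribed were among the highest. Gm15500 (chr7:114705197-114706242) matched Rpl5 of the large subunit without a difference over 1018 bases. It had 244, 256 and 228 in the control-IPs and 230 and 209 in the miR-222-IPs, against 74.7 to 110 at Rpl5. Gm13835 (chr6:31141884-31142629), not annotated as transcribed, matched the proteasome gene Psma3 without a difference over 651 bases. It had 93.6, 124 and 147 in the control-IPs and 169 and 243 in the miR-222-IPs, while Psma3 had a single peak of 23.1, in miR-222-IP replicate 2. Gm13835 was chosen after its values were seen.

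Among intervals without a clear parent, the highest were mostly copies of genes that have near-identical relatives. Dynlt1-ps1 (chr6:135349265-135349838) matched Dynlt1c, Dynlt1a and Dynlt1f equally, genes of a dynein light chain, and had 149, 152 and 211 in the control-IPs and 230 and 289 in the miR-222-IPs. The scaled log2 ratios were 0.24 and −0.14, of opposite sign in the experiments. Rpl10-ps1 and Rpl10-ps5 were tied between Rpl10 and Rpl10-ps3, and Gm11478 between Rpl13a and Gm45713, with highest values of 255 to 279. Of the 109 tied intervals, 25 were tied between ribosomal protein genes. Others were tied between Gapdh and Gm10358.

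The design asks which intervals differed between miR-222-IPs and control-IPs. Of the exonic intervals in a library, pseudogene intervals made up 9.90, 6.53 and 6.88% in the control-IPs, and 6.51 and 5.04% in the miR-222-IPs. The mean was 7.77% ± 1.85 (SD, n = 3) in the control-IPs and 5.78% ± 1.03 (SD, n = 2) in the miR-222-IPs. Within experiments the difference, miR-222-IP minus control-IP, was −1.77 percentage points, which was not beyond the spread between libraries (exact permutation test within experiments, two-sided p = 0.333, with 0.167 the smallest p that 6 arrangements allow). With an equal number of peaks per library, the highest ones, the difference was −0.057 percentage points. The labels do not say whether libraries of an experiment came from separate cultures, so the spread may be technical.

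Calls present in 1 group alone were fewer among pseudogene intervals than in the background. Both miR-222-IPs and no control-IP had a peak in 88 intervals (4.57%), against 6.37% of all merged intervals. A control-IP and no miR-222-IP had a peak in 85 (4.42%), against 7.38%. Of these 85, 70 had a peak in control-IP replicate 2 alone. All 3 control-IPs and no miR-222-IP had a peak at 1 interval, 0.00967% of merged intervals being called this way. It was Gm12091 (chr11:29601969-29602280), a copy of Rps2, with 23.0, 32.5 and 27.2, all of them close to the lower limit of the lists.

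The median value of the 88 was 23.8 in experiment 1 and 38.4 in experiment 2. Of the 80 with a clear parent, 55 had a parent with a peak at the aligned exons in a control-IP, and 7 of the 88 had a ribosomal protein parent. The highest were Gm11451 (chr2:162898857-162899480), a copy of the muscle-expressed enzyme gene Hacd1, with 25.4 and 91.8, and Gm4939 (chr14:18544141-18545159), a copy of Vps4b, with 38.3 and 79.96. At the aligned exons Hacd1 had 70.2 as its sole peak, in miR-222-IP replicate 2, while Vps4b had a peak in all 5 libraries. Next were Gm29787 (Cttn) with 23.1 and 79.9, Gm7107 (Cdk8) with 30.2 and 77.7 and Gm12226 (Oser1) with 31.6 and 74.2. The highest of the reverse kind was Gm18078 (chr14:16953935-16954189), a copy of Rpsa, with 63.6 in control-IP replicate 2 alone. It was followed by Gm6493 (Tnpo1) with 50.6, Gm10033 with 46.8, Gm8615 (Gnpda1) with 46.4 and Gm7901 (Phgdh) with 45.1, all in control-IP replicate 2 alone.

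For the 830 intervals that recurred in all 5 libraries, library values were brought to 1 scale with median-of-ratios factors, and the miR-222-IP of each experiment was divided by the mean of its control-IPs. The log2 ratio is one of −log10 p values and not a fold change in reads. Its median was −0.11 (SD over intervals 0.39) in experiment 1 and −0.02 (SD 0.49) in experiment 2, against −0.03 and 0.01 over all 7935 merged intervals of this kind. The single control-IPs of experiment 1 differed more, with an SD of 0.62 for the log2 ratio of replicate 1 to replicate 2. Both miR-222-IPs were above all control-IPs of their experiment at 107 of the 830 intervals (12.9%), against 17.4% of all merged intervals. They were below at 195 (23.5%), against 18.4%. Experiment 2 has 1 control-IP in use, so no interval has a replicate check there, and p for a single interval cannot fall below 0.167.

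The copies of ribosomal protein mRNAs and the rest, taken as a whole, went apart. Of 315 ribosomal intervals, 3 (0.952%) were above and 119 (37.8%) below the control-IPs of both experiments, with median log2 ratios of −0.23 and −0.19. The control-IPs of experiment 1 also differed at these intervals. Their median log2 ratio of replicate 1 to replicate 2 was 0.35, against 0.10 over all merged intervals, and so larger in size than −0.23. Of the other 515 intervals, 104 (20.2%) were above and 76 (14.8%) below, with medians of 0.02 and 0.15. Peaks over exons of the ribosomal protein genes themselves gave −0.34 and −0.36, with 2 of 147 above and 77 (52.4%) below. Taking 1 median for each of 74 ribosomal parents, 48 were negative and 2 positive in both experiments. Outside the ribosomal group, copies of parents in no list had 74 of 269 (27.5%) above and 20 (7.43%) below, and copies of oxidative phosphorylation subunits had 6 of 24 above and 1 below. Other groups went the way of the ribosomal copies. Copies of translation factors had 2 of 36 (5.56%) above and 11 (30.6%) below. Copies of glycolytic enzymes had 0 of 14 above and 5 (35.7%) below. Those of the cytoskeleton had 4 of 23 on each side.

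**Figure D5:**
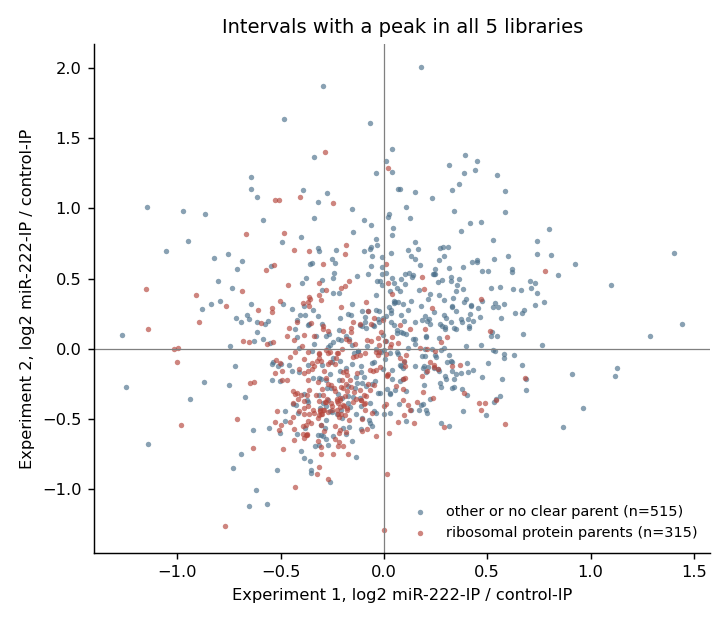
Log2 ratio of miR-222-IP to control-IP values in experiment 1 (x axis) and experiment 2 (y axis) for the 830 intervals that had a peak in each library, 1 point for each interval, with ribosomal protein parents in red and all others in blue. The red points gather at the lower left, with medians of −0.23 and −0.19, and both clouds are wide.

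The ratio also went with the level of the peak. Among other exonic intervals, 11.9% of those with a median value of 20 to 50 were below the control-IPs in both experiments, against 59.5% of those with 200 or more. In the class of 50 to 100 the share below was 34.9% for ribosomal intervals, 8.84% for the other pseudogene intervals and 14.8% for other exonic intervals. In the class of 200 or more it was 69.2, 52.2 and 59.5%. Without control-IP replicate 1 the median of the ribosomal intervals in experiment 1 was −0.00, with 31 above (9.54%) and 118 below (36.3%), against 24.9% of all merged intervals on each side. Without scaling, 154 ribosomal intervals (48.9%) were above and 6 (1.90%) below, against 50.1 and 2.75% of all merged intervals, so their share below was then under that of all intervals, and the medians moved to 0.12 and 0.40 for ribosomal and 0.30 and 0.61 for all intervals. Marker levels moved between the libraries of experiment 2. The scaled sum over the 10 myocyte markers was 257 in control-IP replicate 4 against 908 in miR-222-IP replicate 2, and in experiment 1 it was 426 and 294 in the control-IPs and 399 in the miR-222-IP. The scaled sum over the 3 leukocyte markers was 461 and 283 in experiment 2, and 419, 388 and 381 in experiment 1. Their part in these ratios was not tested. In pulled-down RNA of a whole culture, fewer cells of a type and less RNA per cell cannot be told apart.

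The pseudogenes with the largest ratios were copies of genes outside the ribosomal list. Gm37784 (chr3:69963244-69963899) is a copy of Insig1, which holds back sterol synthesis. It had 28.7, 44.7 and 31.5 in the control-IPs and 51.9 and 191 in the miR-222-IPs, with log2 ratios of 0.18 and 2.01. Insig1 itself had 151 in miR-222-IP replicate 2 at the aligned exons, 29.1 in miR-222-IP replicate 1 and 25.7 in control-IP replicate 2, and no peak in the other libraries. Parent and copy were thus both highest in miR-222-IP replicate 2. Gm13410 (chr2:24179080-24179518) is a copy of Ddx6, an RNA helicase of P-bodies. It had 21.2, 26.3 and 59.9 in the control-IPs and 79.9 and 145 in the miR-222-IPs, with log2 ratios of 1.403 and 0.68. Gm6517, shown above beside Myl12a, had 20.5, 53.4 and 38.7 in the control-IPs and 60.7 and 148 in the miR-222-IPs, with 0.45 and 1.34. Smarce1-ps1 (chr8:41657956-41658695), a copy of a chromatin remodelling subunit, had 0.39 and 1.38.

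The smallest ratios belonged to copies of translation genes and mitochondrial DNA. Rps15a-ps4 (chr4:132220135-132220552) had 55.4, 54.2 and 50.9 in the control-IPs and 41.7 and 31.9 in the miR-222-IPs, with log2 ratios of −0.77 and −1.27. Its values did not overlap between the groups even before scaling. Rps15a at the aligned exons had 80.2, 116 and 100.2 in the control-IPs and 100.8 and 94.4 in the miR-222-IPs, which overlap. Gm6548 on chromosome 17, a copy of Eef1a1, had ratios of −0.65 and −1.12 at its wider interval and −1.14 and −0.68 at its narrower one. Gm29216 and Gm28437 of the mitochondrial block gave −0.56 and −1.11, and −0.62 and −1.01. The 6 mitochondrial copies with a peak in all 5 libraries had medians of −0.53 and −0.78, with 4 below and none above the control-IPs in both experiments. Of all merged intervals with a peak in all 5 libraries, 18.4% were below and 17.4% above. The 6 copies came from 4 parents and include neighbours in the chromosome 1 block, so they are not independent.

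Ratios of copy and parent went together in part. Over the 576 intervals where both had a peak in all 5 libraries, the ratios of copy and parent had the same sign in 402 (69.8%) in experiment 1 and 396 (68.8%) in experiment 2. The Spearman correlation across intervals was 0.33 and 0.46, and the points share the libraries, the scaling and in many cases the parent.

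Seed matches were searched in the exonic bases of the intervals, on the strand of the pseudogene. The mature miRNAs are printed with the seed, bases 2 to 8, in capitals, as given by RefSeq for GRCm38.p6. miR-222 was transfected, and miR-133b is a miRNA of muscle.
mmu-miR-222-3p: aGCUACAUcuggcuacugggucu
mmu-miR-133b-3p: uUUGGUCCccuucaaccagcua
The 7-base match to miR-222 (ATGTAGC) was present in 16 of the 1924 intervals (0.832%, 95% Wilson interval 0.513 to 1.35%), against 1.97% of the other exonic intervals on 1 strand. Per megabase this was 19.5 matches in pseudogene and 50.8 in other exonic intervals. The match to miR-133b (GGACCAA) was present in 100 intervals (5.198%, 4.29 to 6.28%), against 2.79%. The 100 came from 51 best parents, with 37 from Ppia (13), Rpl7a (10), Rps6 (8) and Rps19 (6), so they are not independent. Matches to miR-206 (ACATTCC) and let-7a (CTACCTC), tried as further miRNAs, were at 1.98 and 2.23%, against 2.87 and 3.07%.

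Most miR-222 matches were shared with the parent. Of 13 intervals with an aligned parent, 12 had the same 7 bases in the parent. These 30 bases are from 3 of the highest, with the match in capitals.
Gm16580, a copy of Pabpc1, match at chr17:26269575-26269581, plus strand: gaagccactgtATGTAGCtttagctcagcg
Gm14026, a copy of Setd3, match at chr2:129168804-129168810, plus strand: ctgttgcagaaATGTAGCagtcctgcaccc
Gm3375, a copy of Psmb5, match at chr7:3181842-3181848, plus strand: gtccagtgacaATGTAGCtgacttacatga
Gm16580, from the gene of a poly(A)-binding protein, had 142, 187 and 177 in the control-IPs and 172 and 187 in the miR-222-IPs, with log2 ratios of −0.28 and −0.51. Gm14026, from the gene of the actin histidine methyltransferase Setd3, had 55.4, 59.4 and 43.3 in the control-IPs and 95.02 and 147 in the miR-222-IPs, with 0.36 and 1.17. Gm3375, from the gene of a catalytic proteasome subunit, had 56.7, 51.0 and 84.97 in the control-IPs and 103 and 136 in the miR-222-IPs, with 0.55 and 0.09. The values of the latter pair of pseudogenes were higher in each miR-222-IP than in the control-IPs, before scaling. Such an order was common in unscaled values. Both miR-222-IPs then exceeded the control-IPs of their experiment at 57.3% of the 830 recurring pseudogene intervals. Among all recurring merged intervals the unscaled share was 50.1%, so the order does not set these copies apart.

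A peak was called in all 5 libraries at 4 of the 16 intervals, the fourth being AC134468.1, a copy of Usp9x, with log2 ratios of 0.25 and 0.54. At 15 of the 16 miR-222-IP replicate 2 had a peak and at 10 miR-222-IP replicate 1, against 94.2 and 68.2% of all 1924 intervals. Some control-IP had a peak at 10 of the 16. Single control-IPs had a peak at 50.9, 62.1 and 61.1% of all 1924 intervals, and the share with a peak in any of them is not given here. Both miR-222-IPs and no control-IP had a peak at 2 of them, Gm14538 (Uba3) with 28.5 and 48.8 and Ube2n-ps1 (Ube2n) with 35.5 and 48.5. The reverse held for 1, Gm6493 (Tnpo1). Over all pseudogene intervals these calls made up 4.57 and 4.42%, and over all merged intervals 6.37 and 7.38%. At Gm8416, a copy of the cyclin gene Ccnb1, the parent lacked the match, and the single value was 33.5 in miR-222-IP replicate 2. A match of 7 bases is a description of sequence and not a binding site.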

How the data were processed

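RNA bound to Ago2 was sequenced by the authors in 6 libraries of MSC myocytes. Per the study's methods, SOAPSplice alignments to mm10 were converted with bedtools and macs2 was run with its defaults. For every library the authors deposited peaks over 20 with their −log10 p-value. The macs2 version, any control track and the handling of reads that fit several places are not given in the sources used here. The kits used do not mark strand. The duplex concentration of the labels differs from that in the study's methods.

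Peaks of 5 libraries, GENCODE M21 exons and GRCm38 sequence were joined in Python 3.11.15 with numpy 2.4.6, pandas 2.3.3 and pysam 0.24.0. Parents came from BLASTN 2.17.0, and figures from matplotlib 3.10.9. Identity of 90% over 80% of bases made a parent clear. Planted parents and ratios were recovered on simulated data. The design written for this work allowed for peak heights, but the lists give −log10 p alone, so no count test was run. Alternatives covered the peak threshold, merging, exonic cover, parent limits, scaling and the omission of each library.

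Members and lists were chosen with earlier results of these data known. The rule names the 10 highest intervals, the 5 pseudogenes with most intervals, and the 5 largest and 5 smallest ratios beyond the control-IPs. It also names members with the miR-222 7-mer, the highest with no clear parent or with a parent lacking peaks, transcribed pseudogenes, and calls in 1 group alone. Of these, those on 1 chromosome and a few others elsewhere, one of the 5 pseudogenes with most intervals among them, are not reported here.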

Additional observations from a re-analysis of the deposited data

Results flagged for a closer look

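Control-IP replicate 3 enters no comparison, and its list reaches 10 chromosomes. It was listed here because it holds data outside the comparisons. Of the 851 pseudogene intervals on those chromosomes, 791 (92.9%) lay under one of its 3619 peaks. The same share over all merged intervals was not computed, so the count shows nothing particular to pseudogene intervals. Its median peak width was 32103 bp, so a peak over a pseudogene interval also covers many other bases. No group of libraries in use was large enough to test for a library that stands apart.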

How the results depend on the processing

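For 8 results, 80 alternative values were computed. Of these, 65 stayed within the limits set for a change and 15 moved. The median mean log2 ratio, which carries no test, was −0.05 as reported and changed sign with peaks over 50, with no scaling and without control-IP replicate 1. With peaks over 50, 1095 intervals remained, 1011 with a clear parent and 776 with a parent peak at the aligned exons, the median mean log2 ratio was 0.061, and 34.6% of processed pseudogenes with a peak at the parent had one themselves. That share was 68.8% with a parent limit of 95% identity. With no scaling the median mean log2 ratio was 0.42 and when each library was scaled to its summed values −0.48. With an equal number of peaks per library, 9 intervals had a peak in both miR-222-IPs and no control-IP. Without the replicate block of experiments, the difference in share was −1.99 percentage points (exact permutation test over 10 arrangements, two-sided p = 0.4, smallest possible 0.1) and the median mean log2 ratio −0.07.

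Leaving out each library in turn gave 1549 to 1920 intervals, 1398 to 1709 clear parents, 1169 to 1488 parents with a peak at the aligned exons, a median mean log2 ratio of −0.12 (without control-IP replicate 2) to 0.019 (without control-IP replicate 1) and a difference in share of −2.62 to −0.929 percentage points. It gave 104 to 184 intervals with a peak in both miR-222-IPs and no control-IP (147 without control-IP replicate 2, 184 without replicate 4), 0.775 to 0.835% of intervals with a miR-222 match and 41.0 to 45.5% of processed pseudogenes with a peak where the parent had one. The lowest number of intervals was that without miR-222-IP replicate 2. Added after the data were seen, the parent of the whole interval was clear for 1626 intervals. For ribosomal copies, the share below the control-IPs was above that of all merged intervals with each library left out, 36.3 to 71.2% against 24.9 to 49.5%. Depth is unknown, and peaks under 20 are not listed.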
